A study of Mus musculus with 221 samples.

Results

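The transcripts described are those of 7 SOX transcription factors, Sox2, Sox3, Sox21, Sox8, Sox9, Sox4 and Sox11, and of the long noncoding RNA Sox2ot, 8 of the 23244 features in the deposited expression table. They were taken by name, over all 221 cells. The cells are untreated single cells of the medial neocortex, the cortical wall next to the midline, dissected from C57BL/6J mouse embryos at E18.5, which is shortly before birth. Tissue from 8 neocortices was combined into each of 2 pools, so a pool mixes animals, and pool 2 gave 99 of the cells and pool 1 the rest. Cells were caught on a microfluidic chip and their full-length cDNA was sequenced, and the study's title concerns Hopx-dependent basal radial glia, stem cells that have left the ventricular surface.

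SOX proteins bind DNA through an HMG box related to that of SRY and fall into groups by sequence. SOX2 and SOX3 (group B1) keep neural progenitors in the stem cell state, SOX21 (group B2) acts against B1 factors, SOX8 and SOX9 (group E) mark progenitors that can make glia, and SOX4 and SOX11 (group C) switch on neuronal genes in newborn neurons. During cortical development the B1 and E factors are known from radial glia, the cortical stem cells, whereas the C factors are known from intermediate progenitors and young neurons. SOX2 is also known to be kept in some interneurons, the inhibitory neurons that migrate into the cortex from the ventral forebrain.

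In the mouse assembly GRCm38 (mm10), the Sox2 gene lies at chr3:34649995-34652461 on the plus strand, inside the Sox2ot gene at chr3:34560381-34677993 on the same strand. Sox2 begins 89614 bases after the start of Sox2ot, and 0 of the 44 annotated Sox2ot exons overlap it. Reads from the annotated Sox2ot exons are therefore separate from those of Sox2, a gene without introns, whereas reads of unspliced Sox2ot across Sox2 could not be told apart from it. Sox3 lies at chrX:60891366-60893430, Sox21 at chr14:118233233-118237030, Sox8 at chr17:25565893-25570686, Sox4 at chr13:28948919-28953699 and Sox11 at chr12:27334268-27342718, all on the minus strand, and Sox9 lies at chr11:112782210-112787757 on the plus strand.

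Promoters are shown for Sox2, the B1 factor followed into interneurons, and for Sox4 and Sox11, the pair found in nearly every cell. No promoter of Sox3, Sox9 or Sox2ot was available. Each stretch is the 150 bases before the gene's RefSeq start on GRCm38.p6, 5′ to 3′ on the gene's own strand, and capitals mark CCAAT boxes in either orientation (CCAAT or ATTGG).
Sox2, chr3:34649845-34649994, plus strand: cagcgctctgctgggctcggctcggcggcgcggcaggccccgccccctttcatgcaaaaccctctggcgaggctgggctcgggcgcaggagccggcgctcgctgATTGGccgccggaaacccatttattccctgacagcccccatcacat
Sox4, chr13:28953700-28953849, minus strand: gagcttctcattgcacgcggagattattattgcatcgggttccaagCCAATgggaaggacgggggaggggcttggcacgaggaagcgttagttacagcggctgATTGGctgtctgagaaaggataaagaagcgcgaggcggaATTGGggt
Sox11, chr12:27342719-27342868, minus strand: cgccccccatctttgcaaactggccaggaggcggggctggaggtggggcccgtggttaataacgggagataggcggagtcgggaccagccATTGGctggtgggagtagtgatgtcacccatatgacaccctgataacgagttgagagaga

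Over the 250 bases before the start, Sox4 held 4 CCAAT boxes, of which 3 fall in the printed stretch, at positions -104, -47 and -8 from the start. Sox2 held 1 at -46 and Sox11 held 1 at -60. CCAAT in either orientation occurs in 33.8% of 32851 RefSeq promoters of this length, so its presence in these genes is common. Sox2 also held the octamer-like word ATGCAAA at -99, found in 4.12% of promoters, and the SOX or TCF core ACAAAG at -206, found in 16.5%. The TATA word TATAAA, present in 12.4% of promoters, was not matched in the 5 SOX promoters that the table holds. These matches are letters in a window and say nothing of binding.

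Because SOX genes were to be compared, cells were sorted into classes by marker transcripts that include no SOX gene. A transcript counts as present when its value lies above the floor of its cell, the lowest value of that cell, which was 1.33 to 3.0 TPM (a length-corrected share of all transcripts in the cell, scaled to the same total for every cell). The 36 radial glia-like cells had at least 5 of 8 radial glia markers (such as Hes5, Slc1a3 and Vim) and the 33 Eomes-positive cells carry the transcript of the intermediate progenitor factor TBR2. The 56 Neurod1-positive cells have that proneural transcript without Eomes, and the 31 interneuron-like cells had at least 3 of 8 inhibitory neuron markers (such as Gad1, Dlx2 and Lhx6). The other 65 cells were excitatory neuron-like, with at least 2 of 8 markers such as Neurod2 and Tbr1. The 2 pools gave 15 and 21 radial glia-like, 17 and 16 Eomes-positive, 28 and 28 Neurod1-positive, 17 and 14 interneuron-like, and 45 and 20 excitatory neuron-like cells.

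The radial glia-like class is mixed. Neurod6, an excitatory neuron transcript, was detected in 35 of its 36 cells with a median of 800 TPM, against a median of 1690 TPM in excitatory neuron-like cells, and only 9 radial glia-like cells (3 and 6 in the pools) lay under 100 TPM. Neurod6 also reached a median of 219 TPM in interneuron-like cells, of which 14 lay under 100 TPM. Values for the radial glia-like cells low in Neurod6, and for those with 7 or 8 markers, are therefore given beside the main ones. Cells high in Neurod6 were left out of the radial glia-like and interneuron-like classes only, although Neurod6 is among the 8 excitatory markers. The gate of 7 markers was set after the data were seen. Cell names also carry a letter A or B whose meaning the labels do not give, and 31 of the 36 radial glia-like cells have the letter A (12 and 19 in the pools), against 37 of the 65 excitatory neuron-like cells (24 and 13). The endothelial transcripts Cldn5, Pecam1 and Flt1 were at the floor in all 221 cells. Olig1, of the oligodendrocyte lineage, was above the floor in 9 radial glia-like cells and the astrocyte transcript Gfap in 8. The median number of genes above the floor was 4230.5 in radial glia-like, 4279 in Eomes-positive, 4057 in Neurod1-positive, 3642 in interneuron-like and 3954 in excitatory neuron-like cells.

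All 8 transcripts were present in 10 or more cells and entered the tests. Classes were compared over the 2 pools (n = 2 per class) by limma on the mean log2(TPM + 1) of each class in each pool, with p-values adjusted by the Benjamini-Hochberg method over 10721 genes. To be called, a gene needed an adjusted p under 0.05 together with a log2 change of 1 or more either way. Each difference below is followed by its standard error (SE). The spread behind SE and p-values is that between pools, estimated over all 5 classes together. It is moderated by limma towards the spread of other genes. It is therefore not the spread of the 2 compared classes alone, and it does not measure that between animals. Radial glia-like, Eomes-positive, Neurod1-positive and interneuron-like cells are each set against the same excitatory neuron-like cells, so these comparisons are not independent.

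**Figure D1:**
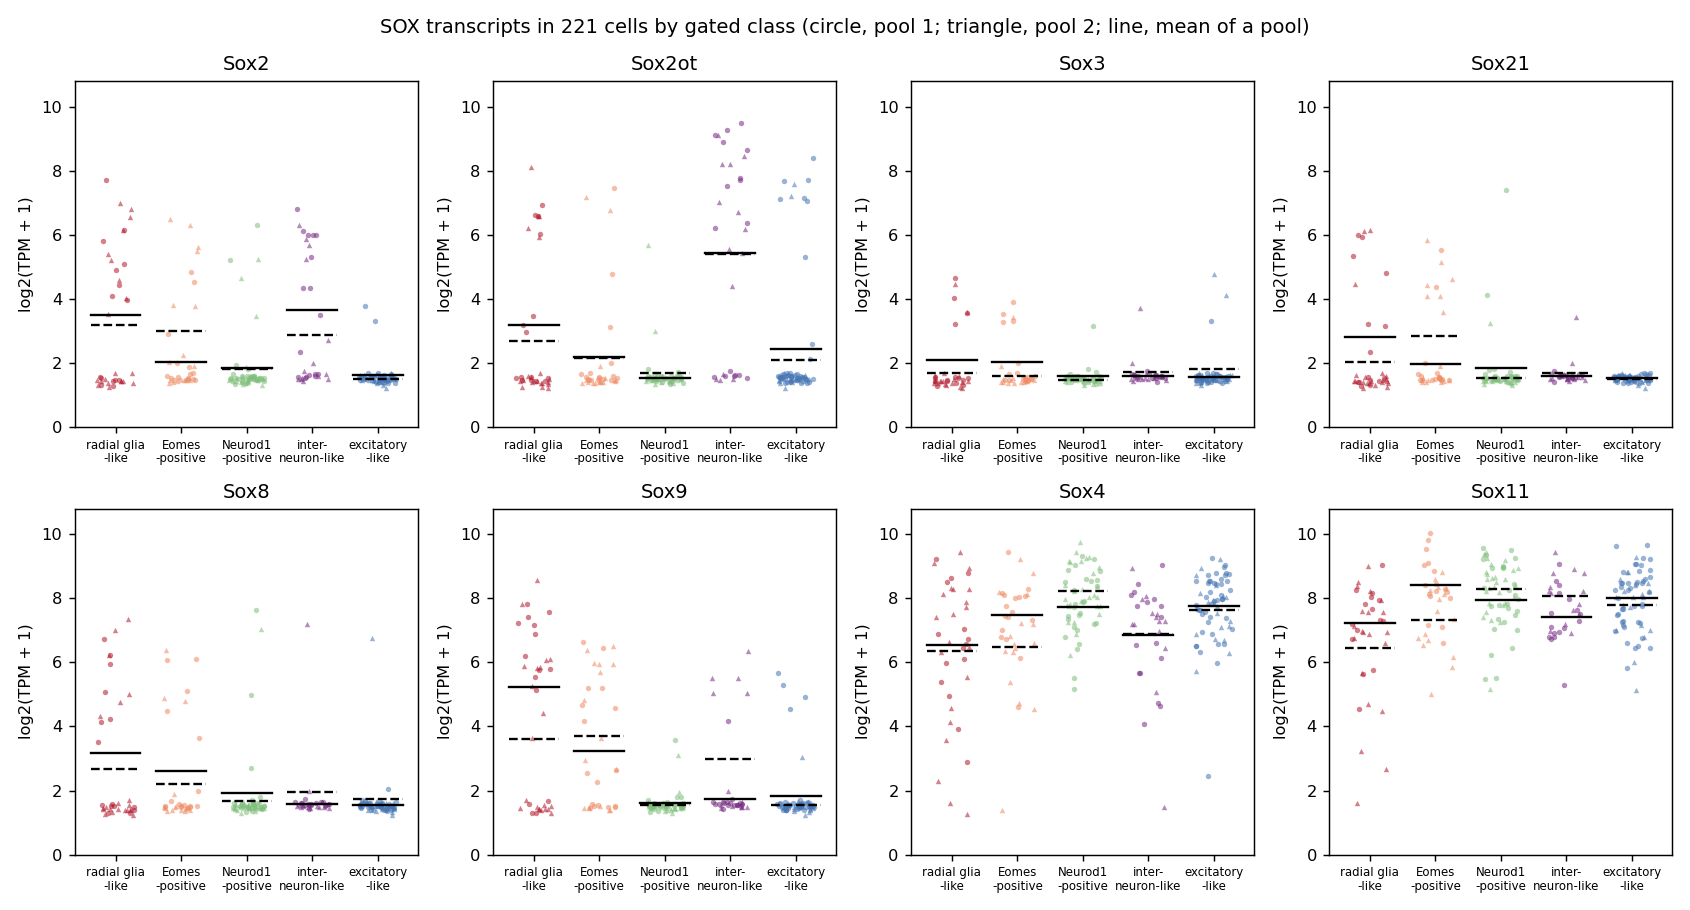
Level of each of the 8 transcripts, as log2(TPM + 1), in every cell of the 5 classes, with pool 1 as circles and a solid line at its mean and pool 2 as triangles and a dashed line at its mean. Sox4 and Sox11 are high in nearly all cells of all classes. The other 6 transcripts are at the floor in most of the 221 cells, and elsewhere range from just above it to well above it. Sox2ot reaches its highest levels in interneuron-like cells.

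Sox2, the B1 factor of neural stem cells, was found in 55 of the 221 cells. The transcript was present in 18 of 36 radial glia-like cells (50%, with an exact 95% interval of 32.9 to 67.1%), in 12 of 33 Eomes-positive cells (36.4%), in 7 of 56 Neurod1-positive cells (12.5%), in 16 of 31 interneuron-like cells (51.6%, 33.1 to 69.8%) and in 2 of 65 excitatory neuron-like cells (3.08%, 0.375 to 10.7%). These intervals cover the counting of cells only.

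In radial glia-like cells Sox2 ranged from 1.40 to 209 TPM, with a median of 34.2 TPM among the 18 cells above the floor. The pool means of log2(TPM + 1) were 3.48 and 3.17 in radial glia-like cells, against 1.61 and 1.49 in excitatory neuron-like cells, so the pools of the 2 classes did not overlap. The log2 difference was 1.78 ± 0.42 (SE) with an adjusted p of 0.0711 (limma), which misses the threshold. The difference passed the test in 6 of 21 other settings, among them radial glia-like cells with at least 7 markers (1.89 ± 0.50, adjusted p = 0.0424, limma) and those low in Neurod6 (2.11 ± 0.50, adjusted p = 0.0367, limma).

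Within radial glia-like cells Sox2 was more often present beside cycling genes, as were the other transcripts except Sox4 and Sox11. Sox2 was found in 12 of the 18 cells with at least 2 of Mki67, Top2a, Cdk1 and Birc5, against 6 of the 18 other cells. Its mean was 44.5 TPM against 11.2 TPM. In the same order Sox8 was in 10 and 3 cells, Sox3 in 5 and 1, Sox9 in 14 and 9, Sox2ot in 8 and 4, and Sox21 in 6 and 4. Among Eomes-positive cells Sox2 was in 6 of 9 with such genes, against 6 of 24 without. There Sox9 was in 7 and 13, Sox21 in 5 and 5, Sox8 in 3 and 5, Sox3 in 2 and 3, and Sox2ot in 1 and 5. These are counts of cells, given without a test.

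Sox3, the X-linked B1 factor that overlaps with Sox2 in function, was rare, with 16 cells in all. Its carriers were 6 radial glia-like, 5 Eomes-positive, 1 Neurod1-positive, 1 interneuron-like and 3 excitatory neuron-like cells, and its highest value was 26.4 TPM. All 6 of the radial glia-like cells with Sox3 had 7 or 8 radial glia markers, and all 6 also had Sox9 and Sox8. Radial glia-like minus excitatory neuron-like cells gave a difference of 0.21 ± 0.20 on the log2 scale, with pool values of 0.53 and -0.11, and was not called.

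Sox21, the B2 factor, was at the floor in all 65 excitatory neuron-like cells, a share that the exact interval limits to at most 5.52%. Carriers made up 10 of 36 radial glia-like cells, 10 of 33 Eomes-positive cells, 4 of 56 Neurod1-positive cells and 2 of 31 interneuron-like cells. The pool means were 2.81 and 2.03 in radial glia-like cells, against 1.52 and 1.49 in excitatory neuron-like cells, without overlap. The log2 difference of 0.92 ± 0.31 was not called (adjusted p = 0.254, limma). Sox21 was called with the stricter radial glia-like cells, at 1.43 ± 0.35 for at least 7 markers (adjusted p = 0.0281) and 2.60 ± 0.49 for those low in Neurod6 (adjusted p = 0.0144, both limma).

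Sox9, the E factor tied to glial fate, had the largest of the 8 differences when radial glia-like cells were set against excitatory neuron-like cells. Sox9 was present in 23 of 36 radial glia-like cells (63.9%, with an exact 95% interval of 46.2 to 79.2%), 20 of 33 Eomes-positive cells (60.6%), 6 of 56 Neurod1-positive cells (10.7%), 6 of 31 interneuron-like cells (19.4%) and 5 of 65 excitatory neuron-like cells (7.69%, 2.54 to 17%). Its range in radial glia-like cells was 1.44 to 379.9 TPM with a median of 35.8 TPM, against 1.33 to 49.9 TPM with a median of 1.87 TPM in excitatory neuron-like cells.

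The pool means of Sox9 were 5.23 and 3.60 in radial glia-like cells, against 1.84 and 1.56 in excitatory neuron-like cells. Both pools were higher in radial glia-like cells, by 3.38 and 2.04. The difference of 2.71 ± 0.53 was called higher (adjusted p = 0.0301, limma). It was the only one of the 8 called in this comparison, where 0.448% of all tested genes were called higher and 0.103% lower.

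The Sox9 call was lost on leaving out any of 3 of the 4 pool profiles compared. The differences were 2.85 without excitatory neuron-like pool 1, 2.57 without excitatory neuron-like pool 2 and 1.90 without radial glia-like pool 1. Each such fit leaves 1 profile in a class, so a lost call alone does not show that the result rests on a single pool. The call was also lost when cells with only 4 radial glia markers were let in (1.53 ± 0.45, adjusted p = 0.677, limma), when means were taken before the logarithm (3.93 ± 0.81, adjusted p = 0.0738, limma) and without the filter on rarely found genes (adjusted p = 0.0690, limma). The difference grew to 3.46 ± 0.61 with at least 7 markers (adjusted p = 0.00524, limma). By letter, the radial glia-like means were 5.37 (A, 12 cells) and 4.67 (B, 3 cells) in pool 1 and 3.58 (A, 19 cells) and 3.79 (B, 2 cells) in pool 2. In excitatory neuron-like cells they were 1.94 (A), 1.73 (B), 1.63 (A) and 1.44 (B) in the same order. The direction was the same within each letter and pool, with few radial glia-like cells of letter B.

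Sox8, the other E factor, was above the floor in 13 radial glia-like, 8 Eomes-positive, 4 Neurod1-positive, 1 interneuron-like and 2 excitatory neuron-like cells. Its highest value, 199 TPM, was in a Neurod1-positive cell. The pool means were 3.17 and 2.68 in radial glia-like cells, against 1.53 and 1.75 in excitatory neuron-like cells. The difference of 1.28 ± 0.32 missed the threshold (adjusted p = 0.0818, limma), and it was called with at least 7 markers (2.19 ± 0.39, adjusted p = 0.00544, limma). In the 9 cells low in Neurod6 it averaged 9.75 TPM, against 26.5 TPM in the other 27 radial glia-like cells, the reverse of Sox9 and Sox21.

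**Figure D2:**
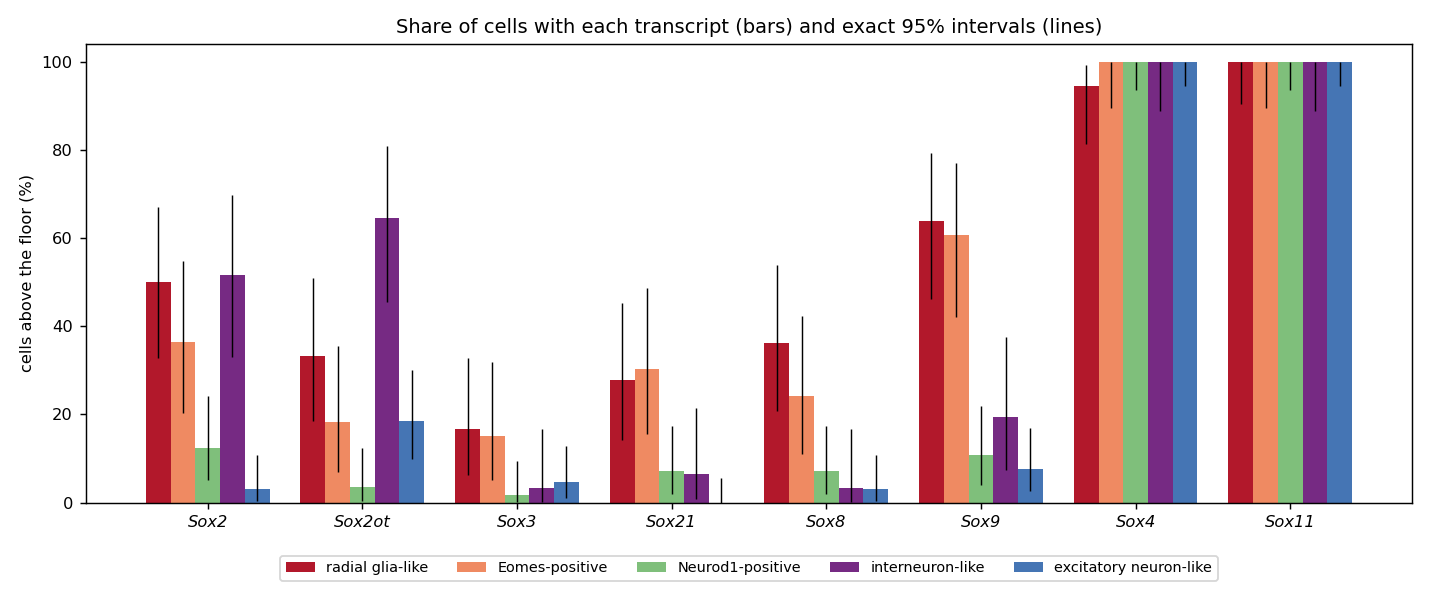
Percent of cells of each class (bars, colours as in the legend) in which each transcript lay above the floor of its cell, with exact 95% intervals as lines. Sox21 had 0 of 65 excitatory neuron-like cells, Sox2 and Sox2ot were in 16 and 20 of 31 interneuron-like cells, and Sox4 and Sox11 were in nearly all cells.

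Sox4 and Sox11, the C factors of newborn neurons, were nearly universal. Sox11 was above the floor in all 221 cells and Sox4 in 219, and the 2 cells without Sox4 were both radial glia-like, of pool 2 and letter B. No other radial glia-like cell had that pool and letter. Presence therefore does not separate the classes for these genes, and the comparison is one of levels.

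Sox4 had a median of 101.4 TPM in radial glia-like, 148 TPM in Eomes-positive, 246 TPM in Neurod1-positive, 157 TPM in interneuron-like and 239 TPM in excitatory neuron-like cells. The pool means of log2(TPM + 1) were 6.54 and 6.36 in radial glia-like cells, against 7.77 and 7.63 in excitatory neuron-like cells. The groups of pools did not overlap, yet the difference of -1.25 ± 0.44 was not called (adjusted p = 0.287, limma). Neurod1-positive cells had the highest mean, 7.98, whose pools (7.73 and 8.23) overlapped those of excitatory neuron-like cells.

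A transcript of the oligodendrocyte lineage went with low Sox4 among radial glia-like cells. In the 9 with Olig1 Sox4 averaged 40.6 TPM, against 235 TPM in the 27 without. The 2 cells without Sox4 were among the 9, and they are also the only radial glia-like cells of pool 2 and letter B. For these 2 cells Olig1 cannot be told apart from letter and pool. Sox11 averaged 105.1 TPM with Olig1, against 193 TPM without. Sox9 was in 9 of the 9, against 14 of the 27. Of the 4 transcripts listed for oligodendrocyte precursors, Olig1, Olig2, Pdgfra and Cspg4 were in 9, 6, 1 and 1 of 36 radial glia-like cells, against 9, 0, 1 and 0 of 65 excitatory neuron-like cells. Their summed level above the floor ran from 0 to 2226 TPM in radial glia-like cells and from 0 to 342 TPM in excitatory neuron-like cells. The part of these cells in the class difference was not tested.

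Sox11 had a median of 142 TPM in radial glia-like, 284 TPM in Eomes-positive, 314 TPM in Neurod1-positive, 196 TPM in interneuron-like and 278 TPM in excitatory neuron-like cells. Its pool means were 7.23 and 6.45 in radial glia-like cells, against 8.01 and 7.79 in excitatory neuron-like cells, and the difference was -1.06 ± 0.45 (adjusted p = 0.420, limma; not called). By mean level the order was Neurod1-positive, excitatory neuron-like, Eomes-positive, interneuron-like and radial glia-like cells. Neighbours in this order overlapped between pools except interneuron-like and radial glia-like cells.

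Both C factors were called lower with the stricter radial glia-like cells. With at least 7 markers the differences were -1.90 ± 0.43 for Sox4 (adjusted p = 0.0210) and -1.78 ± 0.49 for Sox11 (adjusted p = 0.0496, both limma). In that setting 4 of the 8 transcripts were called higher and 2 lower, where 3.68% of all tested genes were called higher and 0.839% lower, and the excitatory neuron-like class grew to 76 cells because cells outside the gate fell to later gates. With radial glia-like cells low in Neurod6 the differences were -3.12 ± 0.53 for Sox4 (adjusted p = 0.00942) and -3.11 ± 0.62 for Sox11 (adjusted p = 0.0183, both limma). There 3 of the 8 were called higher and 2 lower, where 3.28% of all tested genes were called higher and 1.79% lower. That setting has 3 and 6 radial glia-like cells in the pools and used a minimum of 3 cells. Among all 36 radial glia-like cells Neurod6 rose with Sox11 and Sox4 (r of 0.78 and 0.48). Choosing cells low in Neurod6 therefore also chooses cells low in both, so these calls are not independent of that choice.

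**Figure D3:**
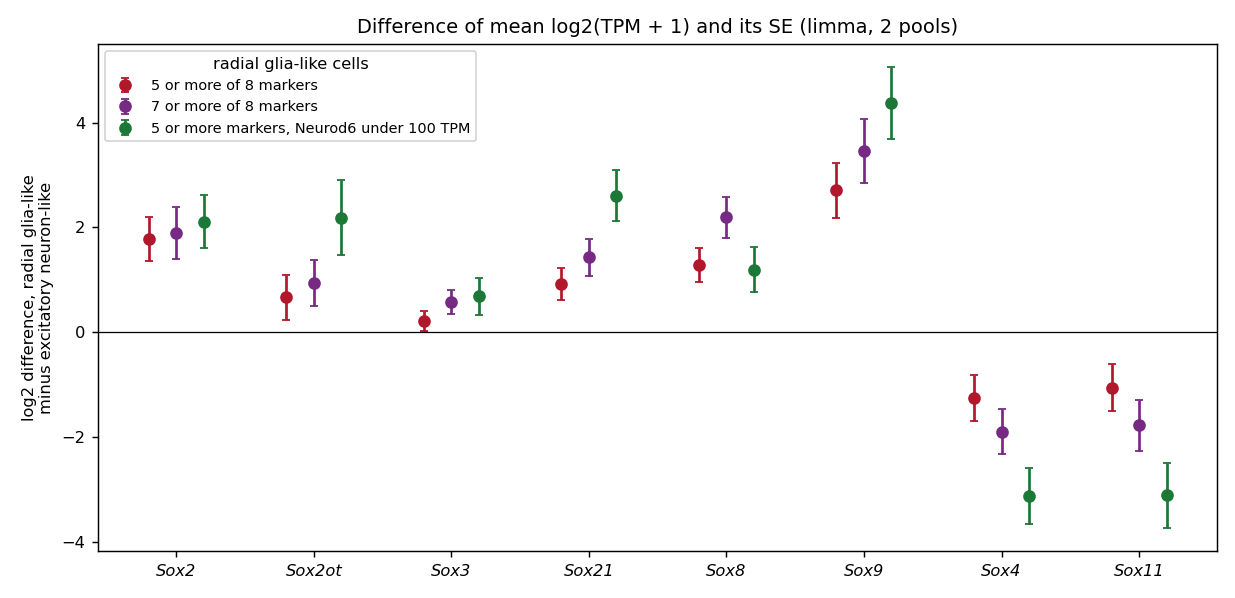
Difference in mean log2(TPM + 1), radial glia-like minus excitatory neuron-like cells, with its SE (limma, 2 pools per class), for 3 definitions of the radial glia-like cells. Sox2, Sox21, Sox8 and Sox9 lie above 0 and Sox4 and Sox11 below 0 in all 3, and Sox4 and Sox11 reach -3.12 and -3.11 for cells low in Neurod6.

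Within the radial glia-like class Sox4 and Sox11 were higher, and Sox9 and Sox21 lower, in the cells with more Neurod6. In the 9 cells with Neurod6 under 100 TPM, Sox4 averaged 63.8 TPM and Sox11 39.5 TPM, against 227 TPM and 214.5 TPM in the 27 cells at or over 100 TPM. Sox9 averaged 128 TPM in the 9 cells, against 41.3 TPM in the 27, and Sox21 averaged 32.3 TPM against 4.54 TPM. Sox21 was above the floor in 6 of the 9, against 4 of the 27.

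Over the 36 radial glia-like cells, Pearson r of log2 values with Neurod6 was 0.78 for Sox11, 0.48 for Sox4, -0.41 for Sox9, -0.64 for Sox21, -0.34 for Sox2ot, -0.29 for Sox3, -0.09 for Sox2 and -0.03 for Sox8. With the mean of the radial glia markers it was 0.71 for Sox9 and -0.62 for Sox11. These cells share 2 pools and a fixed total per cell, so the values are descriptions, and whether captured cells held more than 1 cell was not tested.

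**Figure D4:**
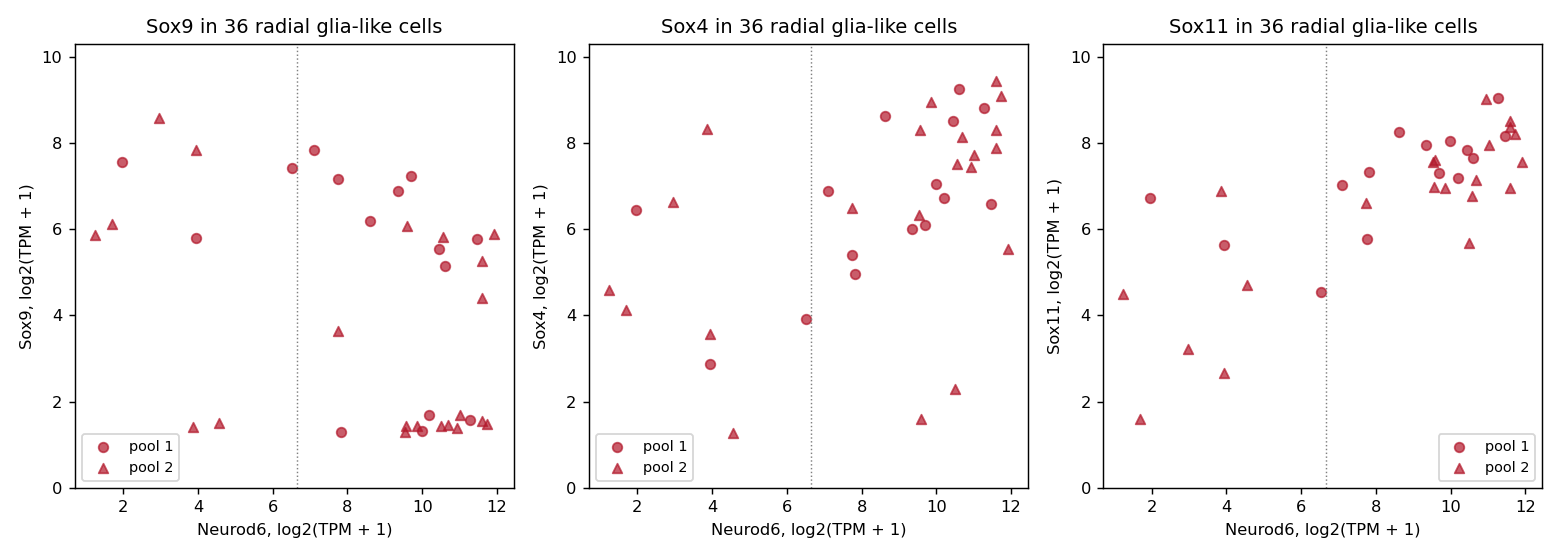
Sox9, Sox4 and Sox11 against Neurod6, all as log2(TPM + 1), in the 36 radial glia-like cells, with pool 1 as circles, pool 2 as triangles and a dotted line at 100 TPM of Neurod6. Sox11 is higher in cells with more Neurod6 (r of 0.78), whereas Sox9 lies above the floor in 8 of the 9 cells left of the line (1 of them at 1.83 TPM) and in 15 of the 27 cells right of it.

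Progenitor and neuronal SOX factors were found together in the same cells. At least 1 of Sox2, Sox9 and Sox21 was present in 24 of 36 radial glia-like, 23 of 33 Eomes-positive, 16 of 56 Neurod1-positive, 18 of 31 interneuron-like and 7 of 65 excitatory neuron-like cells. All 3 were present in 7 radial glia-like, 6 Eomes-positive and 1 interneuron-like cells, and in no other cell. Because Sox11 was in every cell, each of these also had Sox11. These counts take any value above the floor as present and were not recounted at a higher threshold. With at least 20 TPM as presence, Sox2, Sox9 and Sox21 were in 36.1, 55.6 and 19.4% of radial glia-like cells. Their shares fell from 36.4, 60.6 and 30.3% to 18.2, 39.4 and 15.2% in Eomes-positive cells. In Neurod1-positive cells they fell from 12.5, 10.7 and 7.14% to 7.14, 0 and 1.79%.

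By level, Sox2 or Sox9 exceeded Sox11 in 12 of 221 cells on the TPM scale. Of these 9 were radial glia-like, 2 Eomes-positive and 1 interneuron-like. Among radial glia-like cells it was 7 of the 9 low in Neurod6, against 2 of the other 27.

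Progenitor factors shared many radial glia-like and Eomes-positive cells. Sox9 was found in 17 of the 18 radial glia-like cells with Sox2, and Sox2 in 17 of the 23 with Sox9. All 10 radial glia-like and all 10 Eomes-positive cells with Sox21 also had Sox9, which is 10 of the 23 and 10 of the 20 cells with Sox9. Outside these classes Sox21 and Sox9 met in 0 of 4 Neurod1-positive and 1 of 2 interneuron-like cells with Sox21. Sox9 was in 9 of 12 Eomes-positive, 1 of 7 Neurod1-positive, 5 of 16 interneuron-like and 0 of 2 excitatory neuron-like cells with Sox2, and in 32 of 55 over all classes. Over all 221 cells r was 0.45 for Sox2 with Sox9, 0.49 for Sox9 with Sox21, 0.51 for Sox4 with Sox11 and -0.39 for Sox9 with Sox11. With the number of genes above the floor, r was 0.18 for Sox2, 0.22 for Sox9, 0.23 for Sox21, 0.23 for Sox8 and 0.31 for Sox3. It was -0.13 for Sox2ot, -0.07 for Sox4 and -0.18 for Sox11. The median of this number was 4641 and 3933 in the radial glia-like pools, and 4058 and 4464.5 in the Eomes-positive pools. Its part in the shared presence and in pool differences was not tested.

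Eomes-positive cells, the intermediate progenitors by that marker, carried the progenitor factors too. They also had a median of 5 of the 8 radial glia markers (2 to 8), against 7 (5 to 8) in radial glia-like cells. The Eomes gate came before the radial glia gate, so cells that met both were counted as Eomes-positive. Values of this class therefore do not describe intermediate progenitors apart from cells with radial glia markers. Against excitatory neuron-like cells none of the 8 was called, while 0.345% of all genes were called higher and 0.0933% lower (37 and 10 genes, against 35 and 26 after quantile normalization). The largest difference was Sox9 at 1.77 ± 0.53 (adjusted p = 0.153, limma), with pool means of 3.23 and 3.71 in Eomes-positive cells, against 1.84 and 1.56 in excitatory neuron-like cells. Sox21 was at 0.89 ± 0.31 (adjusted p = 0.237, limma).

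Radial glia-like and Eomes-positive cells were not separated by any of the 8 either, with 0.0466% of all genes called higher and 0.0746% lower (5 and 8 genes, against 16 and 8 after quantile normalization). Sox21 averaged 11.5 TPM in radial glia-like cells and 8.74 TPM in Eomes-positive cells, and the log2 difference was 0.028 ± 0.31 with pool values of 0.86 and -0.80. Sox11 had the largest difference, at -1.04 ± 0.45 (adjusted p = 0.450, limma). It was called lower when radial glia-like cells low in Neurod6 were used (-3.09 ± 0.62, adjusted p = 0.0414, limma), where 0.756% of genes were called higher and 0.532% lower.

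Neurod1-positive cells did not differ detectably from excitatory neuron-like cells. None of the 8, and 0 of the 10721 genes, were called by limma (0% higher and 0% lower). An unadjusted p below 0.05 was found for 173 genes, fewer than that threshold alone would give among 10721 tests without any difference. Sox9 had means of 1.62 and 1.55 in Neurod1-positive cells, against 1.84 and 1.56 in excitatory neuron-like cells. Sox4 and Sox11 differed by 0.28 ± 0.44 and 0.23 ± 0.45.

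Interneuron-like cells stood out by Sox2ot, the long noncoding RNA that spans Sox2. It was present in 20 of 31 interneuron-like cells (64.5%, with an exact 95% interval of 45.4 to 80.8%), in 12 of 36 radial glia-like, 6 of 33 Eomes-positive, 2 of 56 Neurod1-positive and 12 of 65 excitatory neuron-like cells (exact interval 9.92 to 30%). In the 20 interneuron-like cells it ran from 20.1 to 719.6 TPM with a median of 212 TPM, and in the 12 excitatory neuron-like cells from 2.19 to 334.5 TPM with a median of 139.5 TPM.

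The pool means of Sox2ot were 5.43 and 5.39 in interneuron-like cells, against 2.44 and 2.09 in excitatory neuron-like cells. The 2 interneuron-like pools lay close together and above both excitatory neuron-like pools. The difference of 3.14 ± 0.43 was called higher (adjusted p = 0.000461, limma), the only call among the 8 in a comparison with 0.513% of genes called higher and 0.466% lower. It was called in each of the 21 other settings, including every setting that left out 1 pool profile, with differences of 2.12 to 4.34.

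The gate that defined interneuron-like cells did not use Sox2ot, although its markers Gad2, Dlx2 and Dlx6os1 ran with Sox2ot over the 221 cells. The 14 interneuron-like cells with Neurod6 under 100 TPM had Sox2ot in 11 cells and at a median of 251.5 TPM, against 9 of the 17 other cells and a median of 20.1 TPM. By letter, the Sox2ot means in interneuron-like cells were 6.07 (A, 3 cells) and 5.29 (B, 14 cells) in pool 1 and 5.60 (A) and 5.10 (B) in pool 2. In excitatory neuron-like cells they were 2.43, 2.46, 1.97 and 2.31 in the same order, lower within each letter and pool.

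For Sox2 itself the log2 difference, interneuron-like minus excitatory neuron-like cells, was 1.71 ± 0.42, with pool means of 3.64 and 2.87 in interneuron-like cells, against 1.61 and 1.49 in excitatory neuron-like cells. The pools did not overlap, and the adjusted p of 0.0625 (limma) misses the threshold. It was called in 4 of 21 other settings, with an adjusted p of 0.0267 after quantile normalization and 0.0495 without interneuron-like pool 2 (both limma). Between radial glia-like and interneuron-like cells Sox2 differed by 0.07 ± 0.42 with pool values of -0.16 and 0.30, and its mean was 27.8 TPM in radial glia-like cells and 23.2 TPM in interneuron-like cells.

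Radial glia-like cells were called lower than interneuron-like cells in Sox2ot, at -2.48 ± 0.43 (adjusted p = 0.00324, limma). This was the only call of the 8, where 1.03% of genes were called higher and 0.737% lower. The call was lost when means were taken before the logarithm (-2.51 ± 0.55, adjusted p = 0.0539) and with cells low in Neurod6 in both classes (-2.15 ± 0.72, adjusted p = 0.0872, both limma). Sox9 had a difference of 2.06 ± 0.53 (adjusted p = 0.0543, limma), just outside the threshold, with pool values of 3.49 and 0.62, and it was called in 12 of 21 other settings.

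Many interneuron-like cells had only Sox2 or only Sox2ot. Both were present in 9 of the 31 cells, Sox2 alone in 7, Sox2ot alone in 11 and neither in 4. That is 9 of 16 cells with Sox2 and 9 of 20 with Sox2ot, and r of their log2 values was -0.16 over the 31 cells. In radial glia-like cells both were present in 6, Sox2 alone in 12, Sox2ot alone in 6 and neither in 12, with r of -0.02.

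**Figure D5:**
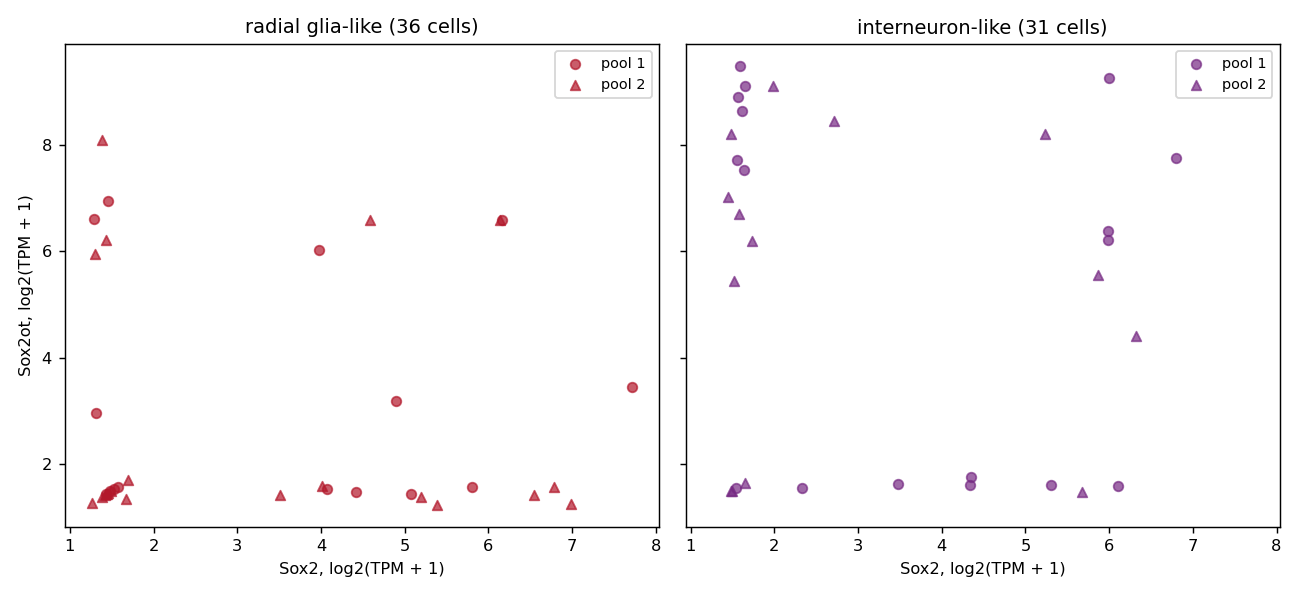
Sox2ot against Sox2, both as log2(TPM + 1), in the 36 radial glia-like and the 31 interneuron-like cells, with pool 1 as circles and pool 2 as triangles. Of the interneuron-like cells 11 lie on the left with Sox2ot alone and 7 along the bottom with Sox2 alone, and 9 have both.

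Sox2 was found in interneuron-like cells with few and with more radial glia markers. Interneuron-like cells had a median of 3 of the 8 markers (0 to 7). The median was 2.5 in Neurod1-positive and 2 in excitatory neuron-like cells (0 to 4 in both). Of the 8, Fabp7 was in 29 of 31 interneuron-like and 63 of 65 excitatory neuron-like cells, so a few such markers are not particular to interneuron-like cells. Sox2 was present in 9 of the 16 interneuron-like cells with at least 3 of the 8 radial glia markers, against 7 of the 15 with at most 2. Sox9 was in 5 of the 16, against 1 of the 15. Sox2ot was in 10 of each group.

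By markers of origin, Sox2 was above the floor in 10 of 20 cells with Lhx6, a factor of interneurons from the medial ganglionic eminence, against 6 of 11 without it. Sox2ot was in 12 of the 20, against 8 of the 11. With at least 1 of 4 transcripts listed for interneurons of the caudal ganglionic eminence (Sp8, Nr2f2, Htr3a and Npas1), Sox2 was in 6 of 13 cells, against 10 of 18 without them, and Sox2ot was in 10 of 13, against 10 of 18. Of these 4, Nr2f2 was also used by itself. Sox2 was in 1 of the 6 interneuron-like cells with Nr2f2, against 15 of the 25 without it, and Sox2ot in 4 and 16. Nr2f2 was also in 21 of 56 Neurod1-positive and 10 of 36 radial glia-like cells, so it does not mark interneurons alone here. Sox4 averaged 134.5 TPM in the cells with Lhx6, against 242 TPM in those without, whereas Sox11 averaged 276 TPM against 195 TPM. Over the interneuron-like cells Sox4 and Sox11 had r of -0.01, while r was 0.43 to 0.59 within each of the other 4 classes.

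Among 9317 genes present in 20 or more cells, those whose log2 values ran most like each SOX transcript over the 221 cells were ranked by Pearson r. Notch1, the receptor of radial glia maintenance, was nearest to Sox9 (r of 0.63), followed by Gpx8, Mfge8, Zfp36l1 and the endothelin receptor gene Ednrb. Sox21 ran with Phgdh (0.56), the first enzyme of serine synthesis, then Notch1, Zfp36l1, Sox9 and Cbs. Sox2 ran with Sox9 (0.45), Pon2, Hes1, Cyba and Id4. Sox8 ran with Vim (0.41), Abhd4, Psph, Igfbp5 and Cbs.

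Sox2ot ran with the interneuron genes Gad2 (0.46), which makes GABA, Dlx2 and Dlx6os1, then with Gm14204 and Npas3. Sox4 ran with Sox11 (0.51), Cd24a, Ttc28, Neurod2 and Basp1. Sox11 ran with H3f3b (0.57), Sox4, Cd24a, Igfbpl1 and Hn1. Mfge8, Hes1, Vim, Gad2, Dlx2, Dlx6os1 and Neurod2 are markers used to sort the cells, and Cd24a was near both C factors.

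Genes of the pathways around these factors were followed in lists. Of 10 genes listed as SOX4 and SOX11 targets or early neuronal genes, 9 were tested. Their median difference, radial glia-like minus excitatory neuron-like cells, was -0.70 on the log2 scale, beside -0.0053 over all tested genes, and 2 were called lower. These were Tubb3, a neuronal tubulin (-1.52 ± 0.32, adjusted p = 0.0380, limma), and Stmn2, a microtubule regulator of growing axons (-1.87 ± 0.41, adjusted p = 0.0489, limma). Tubb3 was called in 13 and Stmn2 in 8 of 21 other settings. Both calls were lost without excitatory neuron-like pool 1 (-1.49 and -1.88), excitatory neuron-like pool 2 (-1.55 and -1.86) or radial glia-like pool 1 (-1.43 and -1.69), with adjusted p of 0.241 to 0.587 (limma).

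Eomes-positive cells were also lower than excitatory neuron-like cells in Stmn2 (-3.02 ± 0.41, adjusted p = 0.00277) and Tubb3 (-1.62 ± 0.32, adjusted p = 0.0257, both limma). They were higher in Elavl4, an RNA-binding protein of young neurons (2.49 ± 0.51, adjusted p = 0.0315), and in Tead2, a TEAD factor named as a SOX4 and SOX11 target (2.003 ± 0.38, adjusted p = 0.0180, both limma). Elavl4 was called lower in radial glia-like than in Eomes-positive cells (-2.96 ± 0.51, adjusted p = 0.0263) and than in interneuron-like cells (-2.26 ± 0.51, adjusted p = 0.0256, both limma). Members of this list therefore did not move as 1 group.

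These calls were also recomputed with 1 pool profile left out. That leaves 1 profile in a class, so a lost call alone does not show that a result rests on a single pool. All 4 in Eomes-positive against excitatory neuron-like cells were lost without excitatory neuron-like pool 1 or pool 2. The differences were then -3.03 and -3.01 for Stmn2, -1.59 and -1.65 for Tubb3, 2.74 and 2.25 for Elavl4, and 2.02 and 1.99 for Tead2. The 4 calls were also lost in the fit with radial glia-like and interneuron-like cells low in Neurod6, where their differences were the same. Without Eomes-positive pool 2 the differences of Tubb3 (-0.98) and Tead2 (1.88) were not called, and Elavl4 was not called without either Eomes-positive pool (2.34 and 2.64). The lower Elavl4 of radial glia-like cells was called in 14 of 21 other settings against Eomes-positive cells and in 15 of 21 against interneuron-like cells. The first was lost without radial glia-like pool 1 (-2.83) or either Eomes-positive pool (-2.81 and -3.11), and the second without radial glia-like pool 1 (-2.14) or either interneuron-like pool (-2.23 and -2.29).

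Of 8 genes listed for the SOX9 and NFIA glial programme, 6 were tested and only Mmd2 was called. Its level was lower in interneuron-like than in excitatory neuron-like cells, with a difference of -3.11 ± 0.67 on the log2 scale (adjusted p = 0.0263), and higher in radial glia-like than in interneuron-like cells (4.13 ± 0.67, adjusted p = 0.00200, both limma). The lower Mmd2 of interneuron-like cells was called in 13 of 21 other settings, and was lost without excitatory neuron-like pool 1 (-3.58), excitatory neuron-like pool 2 (-2.63) or interneuron-like pool 1 (-2.28, adjusted p = 0.0896 to 0.483, limma). The comparison with radial glia-like cells was called in all 21. The median of the 6 was 0.65 for radial glia-like minus excitatory neuron-like cells. Of 10 genes listed as SOX2 partners and targets, 9 were tested, with a median of 0.78 in that comparison, and none was called in any of the 6 comparisons.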

How the data were processed

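Per the labels' protocols, single cells were caught on a Fluidigm C1 chip, with cDNA by SMARTer v4 Ultra Low and libraries by Nextera XT. The deposited values are TPM. For the authors' processing, the submitters' processing notes name Cufflinks 2.2.1, TopHat2 2.0.14 and Bowtie2 2.2.6, and the assembly mm10. The TPM of each cell add up to 1000000, no value is 0, and the deposited floor differs by cell. Read depth is not given in the sources used here, so it is unknown.

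Classes were gated on transcripts other than SOX genes, in the order interneuron, Eomes, radial glia, Neurod1 and excitatory neuron, and no cell was left over. No doublet caller was run. Means of log2(TPM + 1) per class and pool (at least 5 cells, 10 profiles, 5 residual degrees of freedom) entered limma 3.58.1 (R 4.3.3, eBayes with trend and robust variances, two-sided), on 10721 genes present in 10 or more cells. Gate markers and 92 spike-in rows were left out, and the fit was tested on simulated data. Cells of 1 pool are not independent, so no test used cells as replicates. Members of the tables were named by rule: the 8 transcripts, the list genes called, and the 5 genes most like each transcript found in at least 20 cells.

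Classes of 1 pool come from the same animals, so pool number pairs them by design, although the deviations of pool profiles from the class means correlated by only -0.050 to 0.039 between classes. Gene starts and ends and promoters are from RefSeq on GRCm38.p6, strands and exons from GENCODE on GRCm38, and 5 of the 8 genes had a promoter in the table. Sox6 and Aqp4 were not analysed here. The members, gates and lists were chosen with earlier results of these data known. The radial glia gate of 7 markers was added after the data were seen. Alternatives were the pseudocount, scaling, filter, gates, weights, unit, depth and pools left out.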

Additional observations from a re-analysis of the deposited data

How the results depend on the processing

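Of 1008 recomputed differences of the 8 transcripts, 918 kept their direction and side of the threshold, 44 passed it newly, 8 lost it and 38 turned round. The Sox2ot call in interneuron-like against excitatory neuron-like cells held in all 21 alternatives. The replicate block (pool in the model) changed no call of the 8. It left 1, 0, 0, 1, 0 and 1 of them called over the 6 comparisons, in the order they are listed next. With the block, the lower Stmn2 of radial glia-like cells in the first comparison was no longer called (-1.87 ± 0.41, adjusted p = 0.0627, limma). The other calls of list genes held with the block.

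In radial glia-like versus excitatory neuron-like cells (1 called), 6 were called with a gate of 7 markers, 5 without cells high in Neurod6, 3 with values over the floor or profiles weighted by cells, 2 with pool and suffix as the unit, a gate of 6 markers, an interneuron gate of 2 markers or classes by highest marker level, and 0 with the log2 of the mean TPM, no filter or a gate of 4 markers. Leaving out a pool gave 0 to 2. For Eomes-positive and for Neurod1-positive against excitatory neuron-like cells it was 0 throughout. In interneuron-like versus excitatory neuron-like cells (1 called) it was 2 with quantile normalization, weights or a radial glia gate of 4 markers, and 1 to 2 with a pool left out. For radial glia-like against Eomes-positive cells (0 called) it was 1 without cells high in Neurod6. For radial glia-like against interneuron-like cells (1 called) it was 4 with a gate of 7 markers or without cells high in Neurod6, 3 with values over the floor, quantile normalization or a gate of 6 markers, 2 with pseudocount 10, pool and suffix as the unit, an interneuron gate of 2 markers, classes by highest marker level or cells with at least 3000 genes, and 0 with the log2 of the mean TPM. Leaving out a pool gave 1 to 3. The cause was not tested. Over all genes the calls in the same 6 comparisons numbered 59 (0 to 544 in the alternatives), 47 (0 to 125), 0, 55 higher and 50 lower (31 to 134), 13 (0 to 138) and 189 (66 to 1036), where leaving out either excitatory neuron-like pool gave 0 in the first 2.

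The differences that turned round were small and uncalled. In Eomes-positive against excitatory neuron-like cells, Sox11 became 0.021 (log2 of the mean TPM), 0.097 (pool and suffix), 0.022 (gate of 6), 0.023 (gate of 7) and 0.037 (highest marker level), and -0.56 to 0.52 with a pool left out. Sox2ot became 0.23 (pool and suffix), and -0.27 to 0.083 with a pool left out, where Sox3 ran from -0.089 to 0.35. In Neurod1-positive cells Sox9 ran from -0.25 to 0.025 with a pool left out. In interneuron-like against excitatory neuron-like cells, Sox11 became 0.089 (quantile), 0.070 (highest marker level) and 0.037 (without cells high in Neurod6), and -0.49 to 0.17 with a pool left out. Sox3 became 0.0079 (weights), 0.024, 0.0035 and 0.018 (gates of 4, 6 and 7), and -0.15 to 0.085 with a pool left out, where Sox8 ran from -0.057 to 0.31. In radial glia-like against Eomes-positive cells, the gate of 4 gave -0.23 for Sox21, -0.038 for Sox3, -0.022 for Sox8 and -0.25 for Sox9. Sox21 became -0.024 (weights) and -0.021 (highest marker level), and -0.41 to 0.46 with a pool left out, where Sox3 ran from -0.14 to 0.30. In radial glia-like against interneuron-like cells, Sox4 became 0.090 (log2 of the mean TPM) and Sox2 -0.085 (quantile), -0.57 (gate of 4) and -0.013 (interneuron gate of 4), and -0.31 to 0.45 with a pool left out.

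Of 80 recomputed shares 13 moved, all when presence meant at least 20 TPM. Among them, Sox2 then was in 32.3% of interneuron-like cells and 0% of excitatory neuron-like cells, and Sox9 in 39.4% of Eomes-positive cells. Others were Sox2 (18.2%) and Sox21 (15.2%) in Eomes-positive cells, and Sox9 (0%) and Sox21 (1.79%) in Neurod1-positive cells.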

Other observations

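Of the other SOX genes, Sox12, the remaining group C factor, was above the floor in 100 of 221 cells, at a mean of 9.75 TPM, against 236.5 TPM for Sox4 and 282 TPM for Sox11. It was present in 15 radial glia-like, 14 Eomes-positive, 27 Neurod1-positive, 10 interneuron-like and 34 excitatory neuron-like cells. Sox5, a group D factor of deep-layer neurons, was in 58 cells, of which 17 were Eomes-positive and 4 interneuron-like. Sox1, the third group B1 factor, was in 28 cells, of which 9 were interneuron-like and 5 radial glia-like, with a log2 difference, interneuron-like minus excitatory neuron-like cells, of 0.79 ± 0.31 (adjusted p = 0.405, limma). None of these 3 was called in any of the 6 comparisons. Sox10 and Sox18 were each in 2 cells and Sox13 and Sox30 in 1, while Sox7, Sox14, Sox15 and Sox17 were at the floor in all 221 cells.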
